A study of Homo sapiens with 24 samples.

Results

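KEAP1 loss was examined in cells in which TFEB and TFE3 had been knocked down, by comparing 4 sgKEAP1-1 libraries with 4 sgCtrl libraries, all of them from cells given siTFEB/siTFE3. The cells were HepG2, a human liver cancer line. The sgKEAP1-1 cells carried Cas9 with the first of 2 guides against KEAP1, and the sgCtrl cells carried Cas9 with a guide against AAVS1, a safe-harbour locus used as a control target. Each guide and Cas9 came from a lentivirus, and transduced cells were kept by puromycin selection, so each group is a selected population and not stated to be a clone. Both groups received the siRNAs against TFEB and TFE3, and RNA was taken at 72 h. These 8 libraries are chosen from 24, which form 6 groups of 4 (sgCtrl, sgKEAP1-1 and sgKEAP1-2, each with the control siRNA siNC or with siTFEB/siTFE3). The question the comparison addresses is which part of the response to KEAP1 loss is seen when the lysosomal regulators TFEB and TFE3 are reduced. All genes with an Entrez ID were described, 11927 in all, of which 11152 passed the filter on low counts and were tested.

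KEAP1 is the substrate adaptor of a CUL3 ubiquitin ligase that marks the transcription factor NRF2, encoded by NFE2L2, for degradation. When KEAP1 is lost or its cysteines are modified by electrophiles, NRF2 accumulates, pairs with small MAF proteins and binds antioxidant response elements in genes of glutathione synthesis, thioredoxin reduction, NADPH supply and detoxification. TFEB and TFE3 are related transcription factors that enter the nucleus when mTORC1 is low and bind genes of lysosomal enzymes, the lysosomal proton pump and autophagy. In the liver, hepatocytes make most plasma proteins, lipoproteins and bile acids, and HepG2 cells keep part of that programme.

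Reads were counted at the 3′ ends of polyadenylated transcripts, and levels are given as CPM, the count per unit of library size with the library size scaled by TMM. A value written with ± after a log2 fold change is its standard error from the limma-voom fit over all 24 libraries, and a gene was called when its Benjamini-Hochberg adjusted p over the 11152 tested genes was under 0.05. The 8 libraries held 3643080 to 4600951 counted reads. Within a group, libraries correlated at 0.967 to 0.979 in sgCtrl cells and 0.976 to 0.980 in sgKEAP1-1 cells over the tested genes on a log scale, and the first principal component, with 42.5% of the variance, separated the groups. Among sgCtrl libraries, replicates 1 and 4 lay nearest to the sgKEAP1-1 libraries on that component (-23.3 and -18.5 against -29.7 and -30.8), and results that rest on low sgCtrl levels are therefore given with and without them. In the labels each replicate number goes with its own prefix, in the form of a day and month, which is the same in all 6 groups and whose meaning is not stated. Where adding the replicate number to the model as a blocking term changes a call or moves a count by over 1.5 times, that value, termed the replicate block, is given beside the result. All 12 hepatocyte-like markers were detected in every library.

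The targeted gene was checked first. KEAP1 lies on chr19 at 10596801 to 10614234 of GRCh37, the build named in the study's methods. Its RNA stood at 85.8, 86.0, 84.1 and 84.7 CPM in sgCtrl replicates 1 to 4 and at 52.2, 58.5, 49.0 and 63.5 CPM in sgKEAP1-1 replicates 1 to 4. Every sgKEAP1-1 library was below every sgCtrl library, and the log2 fold change was -0.61 ± 0.11 (adjusted p = 0.000259). A 3′ read count gives the amount of the transcript and does not read the edited site. NFE2L2 itself was at 218, 232, 237 and 179 CPM in sgCtrl cells and 183, 194, 189 and 175 CPM in sgKEAP1-1 cells, with overlapping groups and a log2 fold change of -0.22 ± 0.14 that did not pass (adjusted p = 0.405).

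The siRNA targets were low in both groups compared. TFE3 was at 9.47, 10.6, 7.88 and 19.6 CPM in sgCtrl and 14.4, 13.6, 10.7 and 19.0 CPM in sgKEAP1-1 cells given siTFEB/siTFE3, beside 29.2 to 36.1 and 34.0 to 60.5 CPM in the sgCtrl and sgKEAP1-1 libraries given siNC. All 8 knockdown libraries lay below all 8 siNC libraries. The log2 fold change of siTFEB/siTFE3 against siNC for TFE3 was -1.57 in sgCtrl cells (adjusted p = 0.0237) and -1.74 in sgKEAP1-1 cells (adjusted p = 0.00101). TFEB was at 2.11, 2.17, 2.32 and 3.96 and 3.87, 1.41, 4.01 and 2.21 CPM in the knockdown groups, beside 6.98 to 17.3 and 9.17 to 13.7 CPM with siNC, a level near the floor of these libraries. Its change was -1.96 in sgCtrl cells, which did not pass (adjusted p = 0.0858) but passed with the replicate block (-2.01, adjusted p = 0.0157), and -2.15 in sgKEAP1-1 cells (adjusted p = 0.013). Between the knockdown groups neither TFE3 (0.36 ± 0.30, adjusted p = 0.553) nor TFEB (0.01 ± 0.47, adjusted p = 0.993) passed. In all, siTFEB/siTFE3 against siNC called 2 genes in sgCtrl cells (0.0179% of those tested), TFE3 and CCDC117, and 10 in sgKEAP1-1 cells (0.0897%), among them TFE3, TFEB and LIPA, lysosomal acid lipase (-0.83, adjusted p = 0.0461). The TFE3 call in sgCtrl cells was lost on leaving out any 1 of siNC sgCtrl replicates 2, 3 and 4 or siTFEB/siTFE3 sgCtrl replicates 1, 2 and 3 (adjusted p 0.0671 to 0.257), with the log2 fold change staying between -1.83 and -1.39. The TFEB call in sgKEAP1-1 cells was lost on leaving out siTFEB/siTFE3 sgKEAP1-1 replicate 2 or 4 (adjusted p 0.115 and 0.096).

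**Figure D1:**
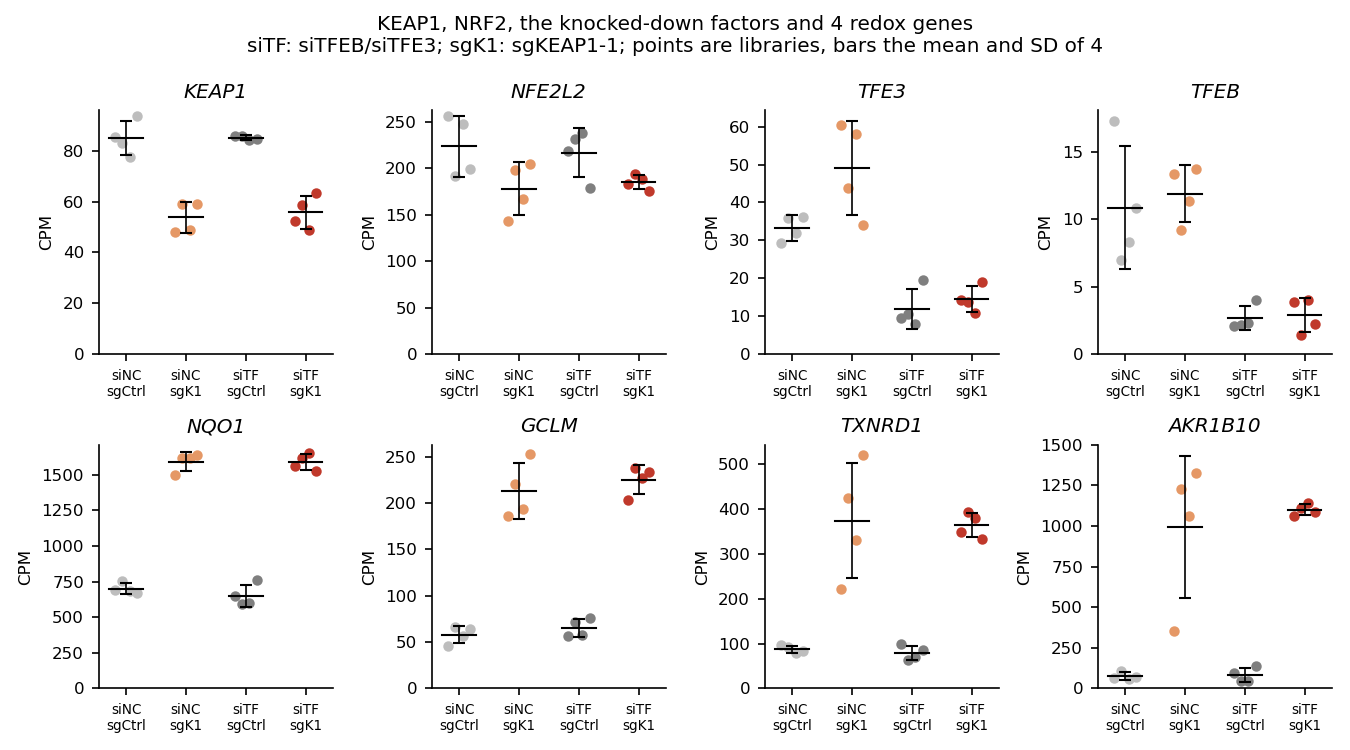
CPM (vertical axis, from 0) of KEAP1, NFE2L2, TFE3, TFEB, NQO1, GCLM, TXNRD1 and AKR1B10 in the 4 libraries of each of 4 groups (horizontal axis), with the mean and SD. The sgKEAP1-1 points lie below the sgCtrl points for KEAP1 and above them for NQO1, GCLM, TXNRD1 and AKR1B10 under either siRNA, and TFE3 and TFEB are low in both siTFEB/siTFE3 groups.

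Under siTFEB/siTFE3, 1170 genes were called between sgKEAP1-1 and sgCtrl cells, 10.5% of those tested. Of these 634 were higher (5.69%) and 536 lower (4.81%) in sgKEAP1-1 cells. A log2 fold change of at least 1 in size was reached by 309 of the genes called higher and 118 of those called lower, so the rises ran to larger sizes than the falls. All 4 sgKEAP1-1 libraries lay above all 4 sgCtrl libraries for 1010 tested genes (9.06%) and below them for 904 (8.11%). Among the called genes the groups did not overlap for 569 of the 634 (89.7%) and 465 of the 536 (86.8%). The number called was 1381 with the replicate block. Labels do not say whether replicates are separate cultures, so the p-values measure the spread between these libraries. Without sgCtrl replicates 1 and 4 together, an alternative chosen after seeing the data, 779 genes were called (413 higher and 366 lower), of which 714 were among the 1170.

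**Figure D2:**
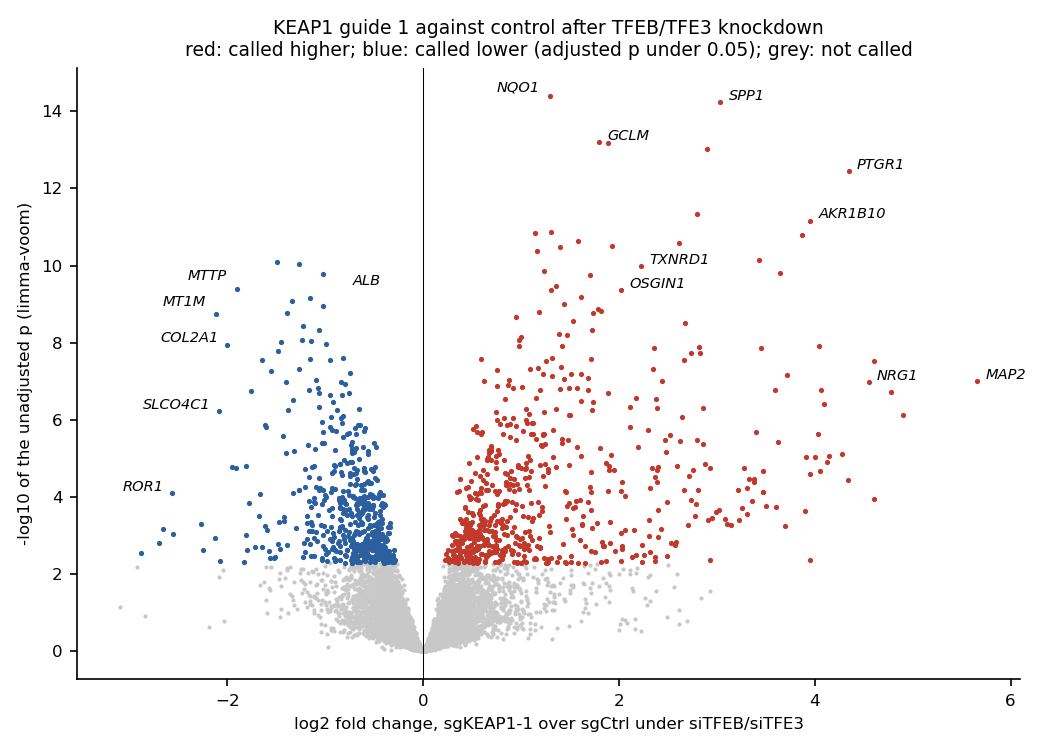
Log2 fold change of sgKEAP1-1 over sgCtrl under siTFEB/siTFE3 (horizontal axis) against −log10 of the unadjusted limma-voom p (vertical axis) for the 11152 tested genes, with called genes in red (634 higher) and blue (536 lower). The rises reach a log2 fold change of 5.66 at MAP2, and the labelled falls reach -2.56 at ROR1.

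Part of the NRF2 programme rose under the knockdown. The 6 lists of downstream functions, from glutathione to heme and iron, held 16, 14, 15, 18, 22 and 18 tested genes. Over these lists 40 genes were called higher and 3 lower, and all 3 belonged to the heme and iron list. Over all tested genes 5.69% were called higher and 4.81% lower. In each of the 6 lists 8 to 11 genes did not pass. Among glutathione genes 6 of 16 tested were higher and 0 lower (list median log2 fold change 0.28, beside 0.003 over all tested genes). GCLM, the modifier subunit of the enzyme that starts glutathione synthesis, was at 56.6, 71.5, 57.7 and 76.1 CPM in sgCtrl cells and 204, 238, 227 and 234 CPM in sgKEAP1-1 cells. No sgCtrl library reached the lowest sgKEAP1-1 library, and the log2 fold change was 1.79 ± 0.12 (adjusted p = 1.83e-10). The catalytic subunit GCLC rose from between 60.5 and 72.4 to between 139.9 and 167 CPM, with no overlap (1.16 ± 0.11, adjusted p = 2.84e-08). The cystine carrier SLC7A11 was called at 1.18 ± 0.32 (adjusted p = 0.0168), but its sgCtrl libraries spread over 60.3 to 185 CPM and overlapped the 179 to 314 CPM of sgKEAP1-1 cells. That call was lost on leaving out any 1 of sgCtrl replicate 1 or sgKEAP1-1 replicates 2 and 4 (adjusted p 0.0626 to 0.0889).

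Of the thioredoxin and peroxiredoxin genes 4 of 14 were higher and 0 lower (median 0.07), so most members of that list did not pass. TXNRD1, the cytosolic thioredoxin reductase, was at 98.7, 62.5, 68.8 and 86.2 CPM in sgCtrl cells and 349.7, 393, 381 and 333 CPM in sgKEAP1-1 cells (2.23 ± 0.21, adjusted p = 5.61e-08). The lowest sgKEAP1-1 library held over 3 times the highest sgCtrl library. OSGIN1, an oxidative stress response gene that restrains growth, stood at 20.8, 15.2, 13.9 and 30.7 CPM against 72.4, 63.5, 85.6 and 92.5 CPM (2.02 ± 0.21, adjusted p = 1.74e-07). TXN, the substrate of TXNRD1, was called at 1.19 ± 0.35 (adjusted p = 0.0247) with controls at 300.0, 318, 259 and 138 CPM, and missed the threshold on leaving out any 1 of sgCtrl replicate 4 or sgKEAP1-1 replicates 1, 2 and 3 (adjusted p 0.0517 to 0.107). SRXN1 was not analysed here.

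Enzymes that supply NADPH, the reductant of both systems, were higher in 5 of 15 and lower in 0 (median 0.19). Pentose phosphate enzymes were among them. PGD, phosphogluconate dehydrogenase, stood at 110.0, 74.8, 87.6 and 121 CPM in sgCtrl cells against 169, 177, 175 and 169 CPM in sgKEAP1-1 cells (0.84 ± 0.12, adjusted p = 2.66e-05), and TALDO1, the transaldolase, at 187 to 266 against 468 to 521 CPM (1.15 ± 0.10, adjusted p = 1.6e-08). Neither gene's groups overlapped. Also called was ALDH1L1, a folate enzyme that makes NADPH (1.51 ± 0.20, adjusted p = 8.72e-06).

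The promoters of the genes that rose were searched for TGACNNNGC, the core letters of the antioxidant response element, on both strands of windows of 300 bases (250 before to 50 after each RefSeq start, GRCh38.p14). Windows were found for 9127 of the 11152 tested genes. The core was in 13.3% of all 35116 RefSeq windows and in 14.7% of those of tested genes, in 14.3% of those of genes called higher and in 14.1% of those of genes called lower, so the called genes as a whole held it at the background share. Windows were found for 33 of the 41 redox, detoxification, iron and NRF2 switch genes called higher, and for 54 of the 67 such genes not called. Of the 46 windows of those called higher, 11 (23.9%) held it, and of the 81 windows of those not called, 12 (14.8%). These are shares of windows, and a gene can have several. The 5 genes of those lists with the largest rises among those holding the core are shown because their rises are described here, with the core in capitals as it reads on the gene's strand (a minus-strand match reads GCNNNGTCA). The windows lie at chr12:104215529-104215828 on the plus strand for TXNRD1, chr1:93909381-93909680 on the minus strand for GCLM, chr1:225825104-225825403 on the plus strand for EPHX1, chr12:16346865-16347164 on the plus strand for MGST1 and chr14:64942696-64942995 on the minus strand for GPX2.
TXNRD1: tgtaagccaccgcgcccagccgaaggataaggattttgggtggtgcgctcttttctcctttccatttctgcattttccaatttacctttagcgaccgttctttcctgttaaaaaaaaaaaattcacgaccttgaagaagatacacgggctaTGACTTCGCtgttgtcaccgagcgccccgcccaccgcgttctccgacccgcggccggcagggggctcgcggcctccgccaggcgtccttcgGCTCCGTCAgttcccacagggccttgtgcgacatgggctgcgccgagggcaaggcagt
GCLM: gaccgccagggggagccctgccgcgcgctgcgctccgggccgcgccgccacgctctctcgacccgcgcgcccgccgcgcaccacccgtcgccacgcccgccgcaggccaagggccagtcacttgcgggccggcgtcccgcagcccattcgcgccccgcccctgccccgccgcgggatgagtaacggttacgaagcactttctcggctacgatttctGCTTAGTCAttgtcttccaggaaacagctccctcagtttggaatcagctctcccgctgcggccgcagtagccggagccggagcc
EPHX1: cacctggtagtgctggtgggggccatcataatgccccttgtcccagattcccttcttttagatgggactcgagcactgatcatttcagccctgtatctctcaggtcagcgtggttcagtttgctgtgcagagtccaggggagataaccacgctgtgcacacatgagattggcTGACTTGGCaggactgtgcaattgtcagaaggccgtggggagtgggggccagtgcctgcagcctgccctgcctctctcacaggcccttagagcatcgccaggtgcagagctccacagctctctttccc
MGST1: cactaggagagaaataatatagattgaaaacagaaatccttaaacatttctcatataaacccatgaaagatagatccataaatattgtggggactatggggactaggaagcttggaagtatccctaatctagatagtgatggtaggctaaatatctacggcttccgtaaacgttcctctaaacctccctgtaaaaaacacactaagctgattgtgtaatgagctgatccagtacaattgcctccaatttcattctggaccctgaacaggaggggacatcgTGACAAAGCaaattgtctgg
GPX2: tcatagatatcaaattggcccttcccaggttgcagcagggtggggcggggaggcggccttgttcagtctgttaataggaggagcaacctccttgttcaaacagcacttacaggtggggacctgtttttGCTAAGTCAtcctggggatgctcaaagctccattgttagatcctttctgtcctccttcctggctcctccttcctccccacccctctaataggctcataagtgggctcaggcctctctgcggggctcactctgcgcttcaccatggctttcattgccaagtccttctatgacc
The TXNRD1 window held 2 cores and the others 1 each. EPHX1 and MGST1 each had 3 windows, of which only the 1 shown held the core. A match of letters is a description of the window and no evidence of binding.

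Quinone and aldehyde reduction held the largest share of rises among the lists described here, 10 of 18 tested genes with 0 lower (median 0.94). NQO1, which reduces quinones without a semiquinone step, had the smallest p of all tested genes. It was at 647, 592, 599.8 and 758 CPM in sgCtrl cells and 1562, 1619, 1651 and 1528 CPM in sgKEAP1-1 cells, tight within each group and without overlap (1.30 ± 0.08, adjusted p = 3.19e-11). PTGR1, a prostaglandin reductase, rose from 52.9, 23.7, 16.0 and 99.1 CPM to 708, 792, 769 and 761 CPM (4.35 ± 0.32, adjusted p = 6.63e-10). AKR1B10, an aldo-keto reductase that acts on retinal and lipid aldehydes, rose from 92.4, 46.6, 44.02 and 136 CPM to 1064, 1112, 1143 and 1084 CPM (3.95 ± 0.34, adjusted p = 9.47e-09). For both genes the sgKEAP1-1 libraries agreed within a narrow range, while sgCtrl replicates 1 and 4 lay above replicates 2 and 3. Without sgCtrl replicates 1 and 4 the log2 fold change was 5.28 for PTGR1 and 4.60 for AKR1B10. ALDH3A1, an aldehyde dehydrogenase, went from between 0.232 and 1.49 to between 9.11 and 13.7 CPM (4.09 ± 0.61, adjusted p = 3.47e-05). AKR1C1, AKR1C2 and AKR1C3 were also called, at 1.89, 2.90 and 1.31. The AKR1C genes resemble each other closely, as AKR1B10 resembles AKR1B15, and how reads were split among them cannot be told from the counts.

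Conjugation and efflux followed, with 11 of 22 higher and 0 lower (median 0.40). The multidrug exporters ABCC2 (1.02) and ABCC3 (1.18), which carry conjugates out of the cell, and the microsomal glutathione transferase MGST1 (1.15) were among them. GSTA1 and GSTA2, near-identical glutathione transferases whose reads may be shared, stood at 16.6, 12.6, 22.5 and 26.8 against 132, 79.2, 122 and 89.4 CPM (2.44 ± 0.33, adjusted p = 1.19e-05) and at 3.95, 0.724, 4.40 and 6.94 against 49.4, 36.7, 45.7 and 39.6 CPM (3.72 ± 0.50, adjusted p = 9.04e-06). UGT1A1, a bilirubin glucuronosyltransferase whose 3′ exons are shared with the other UGT1A genes, had 2, 2, 0 and 1 reads in sgCtrl libraries and 19, 25, 17 and 30 in sgKEAP1-1 libraries. The ratio of rates was 18.5, with an exact 95% counting interval of 7.63 to 58.3 that covers counting error only. GSTP1, the placental-type glutathione transferase, stood at 4.74, 0, 0 and 16.4 against 18.2, 4.23, 0 and 16.8 CPM and did not pass (2.00 ± 1.81, adjusted p = 0.584).

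Iron genes moved in both directions, 4 higher and 3 lower of 18. SLC40A1, the iron exporter ferroportin, rose from 46.6, 39.6, 38.2 and 28.2 CPM to 110.5, 132, 150.3 and 98.5 CPM (1.69 ± 0.23, adjusted p = 1.07e-05). The ferritin light chain FTL rose from between 2948 and 4014 to between 5415 and 5871 CPM (0.76 ± 0.11, adjusted p = 1.46e-05), and FECH, which inserts iron to form heme, from between 11.4 and 18.4 to between 28.4 and 35.3 CPM (1.08 ± 0.17, adjusted p = 5.51e-05). Both rose without overlap. Lower were TF, transferrin (-0.70 ± 0.13, adjusted p = 0.000324), the iron importer SLC11A2 (-0.38 ± 0.10, adjusted p = 0.0171) and NCOA4, the receptor that takes ferritin to lysosomes (-0.35 ± 0.09, adjusted p = 0.0103). The SLC11A2 call was lost on leaving out any 1 of sgCtrl replicate 2 or sgKEAP1-1 replicates 3 and 4 (adjusted p 0.0508 to 0.0696). HMOX1, heme oxygenase 1, stood at 25.3 to 44.5 against 33.6 to 38.0 CPM and did not pass (0.15 ± 0.19, adjusted p = 0.728). Among the 9 genes of the switch itself SQSTM1, which binds KEAP1 and is also an autophagy receptor, rose from 154, 190.0, 177 and 269 CPM to 383, 384, 391 and 450.2 CPM (1.05 ± 0.17, adjusted p = 7.51e-05), and KEAP1 was the 1 called lower.

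**Figure D3:**
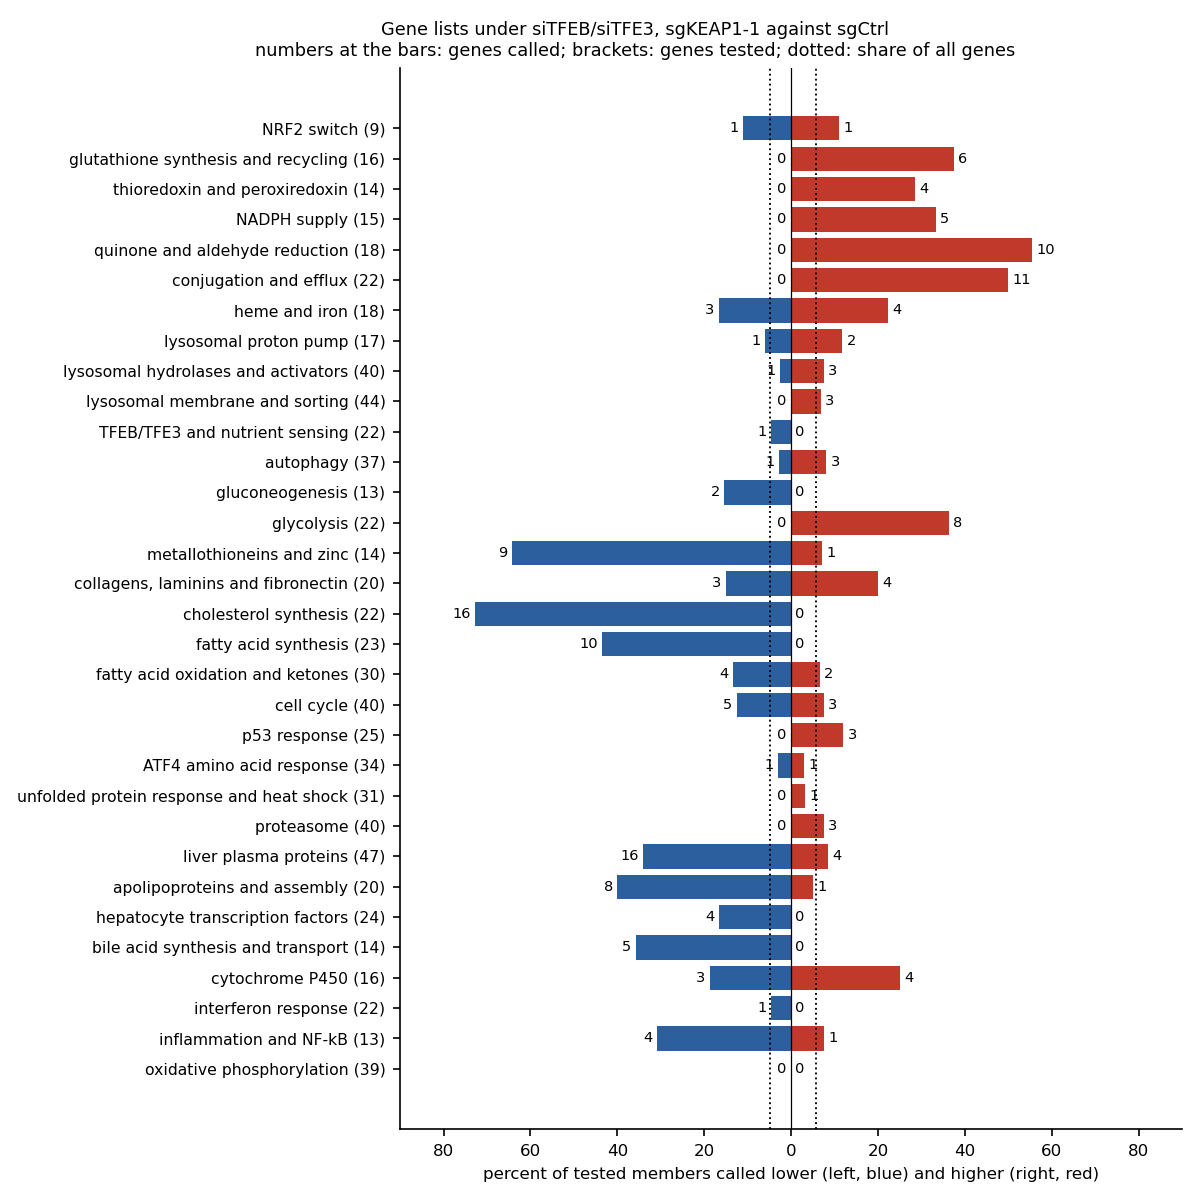
Percent of the tested members of 32 gene lists called higher (right, red) or lower (left, blue) in sgKEAP1-1 cells under siTFEB/siTFE3, with the number called at each bar and the number tested in brackets. Dotted lines mark the shares over all tested genes, 5.69% higher and 4.81% lower. The longest red bar is quinone and aldehyde reduction (10 of 18) and the longest blue bar cholesterol synthesis (16 of 22).

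Without sgCtrl replicates 1 and 4 fewer members of most lists were called, while the list medians kept their side of 0 in all 32 lists other than that of ATF4. Higher were then 4 glutathione, 2 thioredoxin, 4 NADPH, 11 quinone and aldehyde, 7 conjugation and 5 glycolysis genes. Lower were 14 cholesterol, 6 fatty acid synthesis, 14 plasma protein, 7 apolipoprotein, 2 hepatocyte factor and 3 bile acid genes, and of the cell cycle list 2 were higher and 1 lower. The hydrolase, proton pump and lysosomal membrane lists then had 3, 2 and 2 genes higher.

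The largest rises were mostly in genes barely read in sgCtrl cells. The 12 largest by the naming rule were MAP2, DEFB1, NOTCH3, TMEM92, TINAG, NRG1, PTGR1, F2RL2, P2RY6, ALDH3A1, KILH and LAMC3, at log2 fold changes of 4.05 to 5.66. MAP2, a microtubule-associated protein typical of neurons, was at 1.84, 0.241, 0 and 4.21 CPM in sgCtrl cells and 29.3, 29.9, 44.4 and 50.5 CPM in sgKEAP1-1 cells (5.66 ± 0.78, adjusted p = 1.2e-05). DEFB1, an epithelial defensin, was at 2.11, 0.724, 0.232 and 4.71 against 22.9, 38.6, 47.6 and 51.4 CPM (4.90 ± 0.76, adjusted p = 5.73e-05). NRG1, a ligand of ERBB receptors, was at 0.789, 0.241, 0.463 and 1.98 against 12.2, 24.5, 19.8 and 18.8 CPM (4.55 ± 0.63, adjusted p = 1.24e-05). In each of the 3, sgCtrl replicate 4 was the highest control and every control lay below every sgKEAP1-1 library. NOTCH3, a Notch receptor (0 to 1.58 against 9.64 to 12.2 CPM), TINAG, a basement membrane protein (0.232 to 3.72 against 16.6 to 29.9 CPM), and LAMC3, a laminin chain (0 to 1.24 against 5.53 to 6.15 CPM), were likewise below in every control. F2RL2, a protease-activated receptor, had 2, 0, 0 and 1 reads in sgCtrl libraries and 16, 15, 34 and 18 in sgKEAP1-1 libraries, a ratio of 28.1 with an exact counting interval of 9.28 to 139. TMEM92 had 0, 2, 2 and 0 reads in sgCtrl libraries and 8, 50, 33 and 32 in sgKEAP1-1 libraries (ratio 31.2, interval 11.9 to 116). Its call was lost without sgCtrl replicates 1 and 4 (adjusted p = 0.0777). Both counting intervals pool the libraries and cover counting error only. Pairs of libraries within a group differed by more than counting error, with a chi-square per degree of freedom of 3.75 to 10.9 over genes. In all, 27 of the 634 genes called higher had no more than 3 reads in any sgCtrl library, and their fitted fold changes depend on the prior count.

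The sgCtrl libraries did not hold these genes at equal levels. For the 26 genes called higher with a rise of at least 8-fold in mean CPM and a mean of at least 10 reads, the median level in sgCtrl replicates 1, 2, 3 and 4 was 8.45%, 2.45%, 2.48% and 13.9% of the sgKEAP1-1 mean. In the siNC sgCtrl libraries the same genes stood at 5.27%, 11.1%, 5.61% and 5.16% of the siNC sgKEAP1-1 mean. In the median gene sgCtrl replicates 1 and 4 thus lay above replicates 2 and 3, and what produced this was not tested. The fold change of such a gene depends on the control libraries used. For MAP2 the log2 fold change was 7.53 without sgCtrl replicates 1 and 4, for DEFB1 6.17, and for NRG1 5.34. In the controls then left, sgCtrl replicates 2 and 3, MAP2 stood at 0.627% and 0% of its sgKEAP1-1 mean. DEFB1 stood at 1.81% and 0.578% of its mean, and NRG1 at 1.28% and 2.46%. These folds rest on few control reads and depend on the prior count, and leaving out the higher controls raises them.

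**Figure D4:**
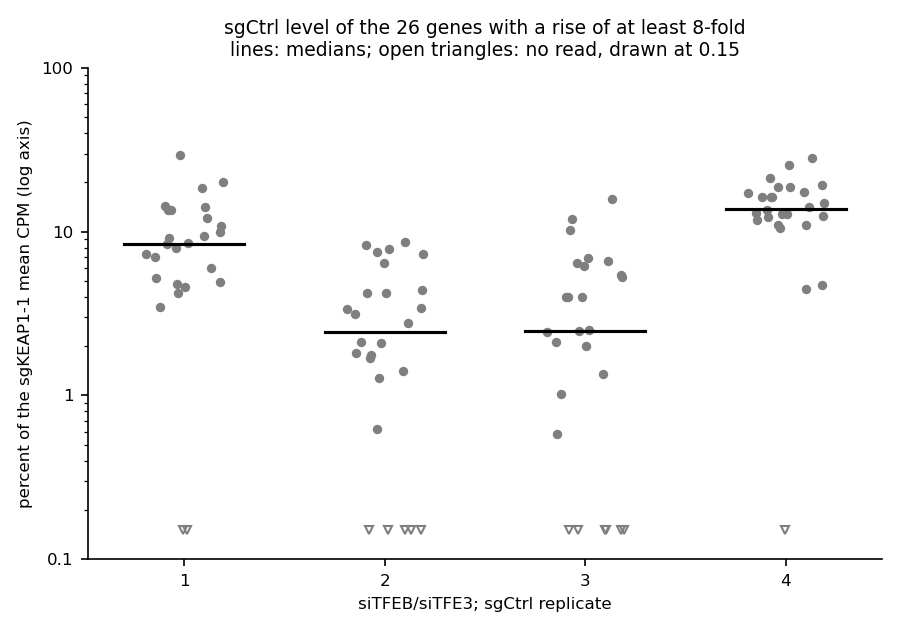
Level of each of 26 genes in siTFEB/siTFE3 sgCtrl replicates 1 to 4 (horizontal axis) as a percent of its mean CPM in sgKEAP1-1 cells (vertical axis, log scale). Lines are medians (8.45%, 2.45%, 2.48% and 13.9%), and open triangles are genes with no read.

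Lysosomal genes, the class that TFEB and TFE3 act on, showed few calls under the knockdown. Of 40 tested hydrolases and activators 3 were higher and 1 lower (median 0.14), of 44 membrane and sorting genes 3 and 0 (0.10), and of 17 proton pump genes 2 and 1 (0.15). The shares called higher, from 6.82% to 11.8%, lay above the 5.69% of all tested genes by about 1 gene a list. With the replicate block 5 hydrolases were higher and 2 lower, and 5 membrane and sorting genes were higher and 0 lower. GLA, the lysosomal alpha-galactosidase, rose from 11.3, 10.1, 12.3 and 14.4 CPM to 26.2, 24.5, 31.0 and 32.3 CPM without overlap (1.24 ± 0.19, adjusted p = 5.12e-05). AGA, aspartylglucosaminidase, rose from 31.1, 30.9, 33.8 and 30.0 CPM to 54.4, 59.5, 59.1 and 50.5 CPM (0.82 ± 0.13, adjusted p = 6.59e-05). IDS, iduronate sulfatase, was called at 1.00 ± 0.29 (adjusted p = 0.0241) on 4.83 to 10.9 against 11.5 to 24.5 CPM, a call lost on leaving out any 1 of sgCtrl replicate 2 or sgKEAP1-1 replicates 2 and 4 (adjusted p 0.0706 to 0.13). NPC2, a lysosomal cholesterol carrier, was lower (-0.31 ± 0.09, adjusted p = 0.0362), and that call was lost on leaving out any 1 of sgCtrl replicates 2 and 4 or sgKEAP1-1 replicates 2, 3 and 4 (adjusted p 0.0741 to 0.149).

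CTSB, the protease cathepsin B, was at 360.0, 469, 399.9 and 459 CPM in sgCtrl cells and 506, 658, 593 and 615 CPM in sgKEAP1-1 cells. All 4 sgKEAP1-1 libraries lay above all 4 sgCtrl libraries, and the log2 fold change of 0.49 ± 0.16 did not pass in the 24-library fit (adjusted p = 0.0547). It passed with the replicate block (0.49, adjusted p = 0.000534), in the 8 libraries alone (0.00268), with library quality weights (0.0046), by DESeq2 (0.0355), by edgeR (0.0491) and on leaving out sgKEAP1-1 replicate 1 (0.0466). LAMP1, a membrane glycoprotein of lysosomes, was also above in all 4 libraries (339 to 371 against 379 to 447 CPM) and did not pass (0.21 ± 0.09, adjusted p = 0.174), other than with library quality weights (0.034). The interval of its log2 fold change was 0.02 to 0.39. AP1S3, a subunit of the AP-1 sorting adaptor, rose from between 24.4 and 40.3 to between 46.4 and 70.4 CPM (0.95 ± 0.16, adjusted p = 0.000182). In the proton pump, ATP6V0E1 rose from between 159 and 204 to between 231 and 253 CPM (0.43 ± 0.10, adjusted p = 0.00413), and the related subunit gene ATP6V0E2 was lower (-0.78 ± 0.23, adjusted p = 0.029), a call lost on leaving out any 1 of sgCtrl replicates 1 and 4 or sgKEAP1-1 replicates 2, 3 and 4 (adjusted p 0.0527 to 0.125). The other pump gene called higher, ATP6V1D (0.49 ± 0.14, adjusted p = 0.0234), lost its call without any 1 of sgCtrl replicates 1 and 3 or sgKEAP1-1 replicates 2 and 3 (adjusted p 0.0828 to 0.0989).

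Of 37 autophagy genes 3 were higher and 1 lower (median 0.05), counts near the shares over all tested genes (5.69% higher and 4.81% lower). The rises were GABARAPL1, an ATG8 family protein, and the cargo receptors SQSTM1 and TAX1BP1. GABARAPL1, the ATG8 protein, went from 20.8, 28.0, 28.3 and 30.5 CPM to 51.6, 66.5, 59.1 and 62.0 CPM (1.16 ± 0.20, adjusted p = 0.000179), and TAX1BP1 from between 235 and 327 to between 395 and 478 CPM (0.71 ± 0.15, adjusted p = 0.0015). ATG4B, a protease that trims ATG8 proteins, was lower (-0.55 ± 0.13, adjusted p = 0.00426). The letters CACGTG, a palindrome that TFEB, TFE3 and many other E-box factors can bind, stood in 9.34% of the windows of tested genes, 7.26% of all windows, 5.41% of those of genes called higher and 6.43% of those of genes called lower. Among 22 genes of TFEB/TFE3 and nutrient sensing 0 were called higher, with 14 of the 22 above 0, and 1 was lower, FNIP2, a partner of folliculin, at 61.3, 85.7, 76.7 and 75.6 against 44.7, 50.1, 41.2 and 47.1 CPM (-0.70 ± 0.11, adjusted p = 0.000109).

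Cholesterol synthesis was lower as a group. Of 22 tested genes 16 were called lower and 0 higher, with a median of -0.73, where 4.81% of all genes were called lower. HMGCS1, which makes HMG-CoA, was at 458, 640.1, 672 and 570.1 CPM in sgCtrl cells and 275, 249, 282 and 248 CPM in sgKEAP1-1 cells (-1.14 ± 0.14, adjusted p = 1.97e-06). The lowest control was sgCtrl replicate 1, and every sgKEAP1-1 library lay below it. Lower too were MVD (-0.90), MVK (-0.90), SQLE (-0.89), EBP (-0.84) and the regulator SREBF2 (-0.43). Without sgCtrl replicates 1 and 4, 14 were called lower and 0 higher (median -0.72).

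Promoter windows, 12 in all, were found for 10 of the 16 cholesterol genes called lower. The SREBF2 promoter is shown because it was the only window of the 12 to hold CACCCCAC, letters found in sterol regulatory elements. Those letters stood in 2.79% of all windows and 2.5% of those of tested genes. Neither strand of the other 11 held it, which says only that these letters are not in those windows. The window lies at chr22:41832855-41833154 on the plus strand (RefSeq, GRCh38.p14), with the match in capitals.
SREBF2: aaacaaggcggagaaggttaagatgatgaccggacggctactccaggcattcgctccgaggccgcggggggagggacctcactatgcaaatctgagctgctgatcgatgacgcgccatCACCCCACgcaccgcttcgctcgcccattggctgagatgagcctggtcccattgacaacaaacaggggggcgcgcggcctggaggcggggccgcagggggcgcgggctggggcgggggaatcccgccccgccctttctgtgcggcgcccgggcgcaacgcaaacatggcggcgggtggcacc

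Fatty acid synthesis had 10 of 23 lower and 0 higher (median -0.39). ELOVL2, which lengthens polyunsaturated fatty acids, was at 213, 194, 211 and 175 against 101, 100.2, 97.9 and 99.2 CPM, with narrow spread in both groups (-0.99 ± 0.12, adjusted p = 2.25e-06). FASN (-0.39), SCD (-0.47) and ACSS2 (-0.70) were called as well. MLXIPL, the carbohydrate-responsive factor ChREBP, was called at -1.16 ± 0.31 (adjusted p = 0.0126) although its groups overlapped (135 to 379.8 and 67.7 to 139.7 CPM), and the call was lost on leaving out any 1 of sgCtrl replicates 3 and 4 or sgKEAP1-1 replicate 2 (adjusted p 0.0521 to 0.069). Fatty acid oxidation had 4 of 30 lower and 2 higher, beside 4.81% lower and 5.69% higher over all tested genes. Its median was -0.13, with 21 of the 30 below 0. CPT1A, which admits fatty acids to mitochondria, rose from between 113 and 130.4 to between 196 and 208 CPM (0.76 ± 0.12, adjusted p = 7.56e-05), while ACADSB (-0.69 ± 0.12, adjusted p = 0.000267) and HADH (-0.56 ± 0.11, adjusted p = 0.00127), both enzymes of the oxidation cycle, fell.

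Liver secretory genes were lower on balance. Of 47 tested plasma protein genes 16 were lower and 4 higher (median -0.40), and of 20 apolipoprotein and assembly genes 8 were lower and 1 higher (-0.38). ALB, serum albumin, was at 7802, 10127, 9267 and 9752 CPM in sgCtrl cells and 5308, 4169, 4187 and 4592 CPM in sgKEAP1-1 cells (-1.02 ± 0.11, adjusted p = 3.71e-07). AFP, alpha-fetoprotein, was at 4334, 8529, 7543 and 6499.8 against 2492, 2675, 2063 and 2530.0 CPM (-1.43 ± 0.24, adjusted p = 0.000149). MTTP, which loads lipid onto apolipoprotein B, was at 102, 195, 145 and 104 against 43.4, 32.9, 30.5 and 35.6 CPM (-1.90 ± 0.20, adjusted p = 1.69e-07). All 3 fell without overlap, and for ALB and AFP sgCtrl replicate 1 was the lowest control. The exceptions among plasma proteins were C1S (from between 10.0 and 11.6 to between 24.9 and 36.1 CPM, 1.42 ± 0.24, adjusted p = 0.000181) and C1R, the proteases of the first complement component, with FGL1 (0.87 ± 0.12, adjusted p = 1.17e-05) and IGFBP2 (0.78). The C1R call (1.00 ± 0.33, adjusted p = 0.0487) rested on 3.24 to 4.96 CPM in controls and was lost on leaving out any 1 of sgCtrl replicates 1, 2, 3 and 4 or sgKEAP1-1 replicates 2, 3 and 4 (adjusted p 0.0607 to 0.15).

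**Figure D5:**
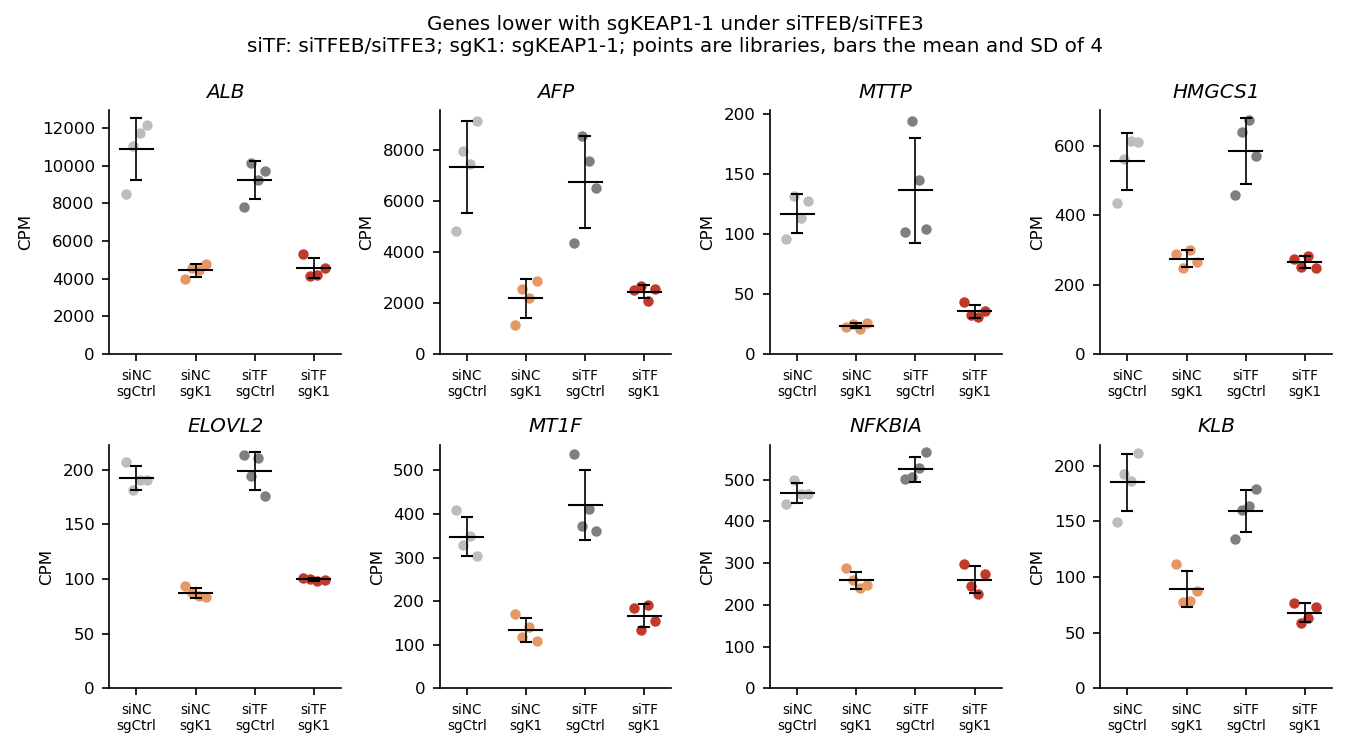
CPM (vertical axis, from 0) of ALB, AFP, MTTP, HMGCS1, ELOVL2, MT1F, NFKBIA and KLB in the 4 libraries of each of 4 groups (horizontal axis), with the mean and SD. In each panel every sgKEAP1-1 library lies below every sgCtrl library given the same siRNA.

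Of 24 hepatocyte transcription factors 4 were lower and 0 higher. HNF4A, a nuclear receptor that maintains hepatocyte identity, was at 189, 177, 188 and 179.6 against 138, 122, 123 and 123 CPM (-0.54 ± 0.12, adjusted p = 0.00223). RXRA (-0.56 ± 0.13, adjusted p = 0.00576, and 0.0552 without sgCtrl replicates 1 and 4) and PPARA (-0.52) were also lower, and HNF4G, at 2.08 to 3.86 against 0.47 to 1.33 CPM, was called by a margin (adjusted p = 0.0406, and 0.0569 with the replicate block) that was lost on leaving out any 1 of sgCtrl replicates 1, 2 and 4 or sgKEAP1-1 replicates 1, 2, 3 and 4 (adjusted p 0.0683 to 0.164). Of 14 bile acid genes 5 were lower and 0 higher, led by KLB, the co-receptor for FGF19, at 134, 159.8, 164 and 179 against 76.8, 58.3, 63.4 and 73.5 CPM (-1.23 ± 0.14, adjusted p = 9.4e-07). The hepatocyte-like marker list summed to 27780 to 37830 CPM in sgCtrl and 21290 to 22429 CPM in sgKEAP1-1 libraries, with 6 of 12 members lower and 0 higher. Cholangiocyte markers summed to 835 to 1093 CPM against 2149 to 2563 CPM, with 4 of 8 listed genes in the table. SPP1, osteopontin, rose from between 97.1 and 191 to between 1034 and 1282 CPM (3.04 ± 0.19, adjusted p = 3.19e-11) and KRT19, a keratin of bile duct cells, from between 269 and 383 to between 621 and 876 CPM (1.31 ± 0.14, adjusted p = 1.75e-07). EPCAM overlapped (133 to 179 against 138 to 202 CPM) and did not pass. SOX9 did not pass either, and it was lower in every sgKEAP1-1 library (306 to 341 against 268 to 296 CPM). The higher sum thus came from SPP1 and KRT19 and not from the list as a whole. In bulk RNA, fewer cells of a type and less RNA per cell cannot be told apart, and the part of these markers in the other results was not tested.

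Metallothioneins were the other group that fell together, with 9 of 14 metallothionein and zinc genes lower and 1 higher (median -0.79). MT1M was at 81.1, 56.3, 63.5 and 43.4 CPM in sgCtrl cells and 9.94, 15.05, 18.2 and 12.6 CPM in sgKEAP1-1 cells (-2.11 ± 0.23, adjusted p = 5.18e-07). MT1F was at 537, 372, 412 and 360.5 against 185, 134, 191 and 155 CPM (-1.34 ± 0.14, adjusted p = 2.9e-07), and sgCtrl replicate 1 was the highest for both. These small zinc-binding proteins are encoded by genes that are near copies of each other, so reads may be shared among them. The zinc and manganese carrier SLC30A10 fell from between 15.5 and 26.1 to between 5.88 and 8.29 CPM (-1.55 ± 0.21, adjusted p = 7.63e-06). MTF1, the factor that drives metallothionein genes, was called higher at 0.52 ± 0.17 (adjusted p = 0.0458), with overlapping groups, and the call was lost on leaving out any 1 of sgCtrl replicates 2, 3 and 4 or sgKEAP1-1 replicates 1, 2 and 3 (adjusted p 0.0655 to 0.175).

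Of the glucose pathways, glycolysis showed the clearer change. Of 22 tested glycolysis genes 8 were higher and 0 lower (median 0.35), and of 13 gluconeogenesis genes 2 were lower and 0 higher (4 and 0 with the replicate block). The gluconeogenesis median was -0.25 (-0.08 with siNC). Its summed level overlapped between the groups, at 772 to 983 CPM in sgCtrl and 696 to 811 CPM in sgKEAP1-1 libraries. PFKP, the platelet phosphofructokinase, rose from 3.42, 3.62, 1.62 and 4.46 CPM to 9.39, 19.0, 11.8 and 19.0 CPM (2.20 ± 0.38, adjusted p = 0.000256). SLC2A1, the glucose carrier GLUT1, was at 340.3 to 484 against 597 to 1008 CPM (0.99 ± 0.27, adjusted p = 0.0179), a call lost on leaving out any 1 of sgCtrl replicate 1 or sgKEAP1-1 replicates 2 and 4 (adjusted p 0.0582 to 0.0777). CREB3L3, a liver factor induced on fasting, fell from 27.4, 17.4, 18.3 and 35.4 CPM to 7.73, 8.70, 6.96 and 7.30 CPM (-1.60 ± 0.26, adjusted p = 0.000103). PCK1, which commits carbon to gluconeogenesis, was called lower at -1.80 ± 0.53 (adjusted p = 0.0287) on sgCtrl values of 9.74, 35.3, 18.3 and 6.69 CPM that spread widely, and the call was lost on leaving out any 1 of sgCtrl replicates 2 and 3 or sgKEAP1-1 replicates 2, 3 and 4 (adjusted p 0.0524 to 0.103).

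Signalling genes were also among the falls. Of 13 inflammation and NF-kB genes 4 were lower and 1 higher. NFKBIA, the inhibitor that holds NF-kB in the cytoplasm, was at 501, 506, 527 and 567 against 297, 244, 225 and 275 CPM (-1.02 ± 0.10, adjusted p = 7.79e-08), and TNFAIP3, another brake on the pathway, at 38.9, 36.7, 42.2 and 45.3 against 27.1, 20.5, 18.7 and 19.3 CPM (-0.95 ± 0.14, adjusted p = 2.16e-05). Neither gene's groups overlapped. CXCL8, the chemokine interleukin 8, went the other way, from 5.79, 3.38, 2.55 and 2.23 CPM to 18.8, 36.4, 23.8 and 21.7 CPM (2.88 ± 0.54, adjusted p = 0.00059). Of 20 matrix genes 4 were higher and 3 lower. COL2A1, the collagen of cartilage, fell from between 22.6 and 38.1 to between 5.35 and 9.67 CPM (adjusted p = 2.3e-06), and FN1, fibronectin, rose from between 4805 and 7043 to between 7549 and 9606 CPM (0.59 ± 0.12, adjusted p = 0.00176).

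The cell cycle list had a median of -0.36, with 36 of 40 genes below 0, though only 5 were called lower and 3 higher (10 and 3 with the replicate block). The 3 were the D-type cyclins CCND1, CCND2 and CCND3, which start the cycle with CDK4 and CDK6. CCND3 rose from 10.0, 8.69, 11.6 and 12.1 CPM to 34.8, 31.0, 30.5 and 33.4 CPM (1.61 ± 0.17, adjusted p = 2.51e-07) and CCND1 from between 249 and 275 to between 357 and 456 CPM (0.62 ± 0.09, adjusted p = 1.19e-05). CCND2 (1.16 ± 0.37, adjusted p = 0.0417) lost its call in every one of the 8 fits without 1 library (adjusted p 0.0533 to 0.143). CDT1, which licenses replication origins, fell from between 73.4 and 111 to between 43.3 and 60.4 CPM (-0.78 ± 0.18, adjusted p = 0.00455, and 0.0701 without sgCtrl replicates 1 and 4). Of the p53 genes 3 of 25 were higher and 0 lower (5 and 0 with the replicate block), among them CDKN1A, the inhibitor p21 (0.62 ± 0.12, adjusted p = 0.00121).

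The remaining lists are given beside the 5.69% of all tested genes called higher and the 4.81% called lower, and most had few calls. Of 40 proteasome genes 3 were higher and 0 lower, of 31 unfolded protein and heat shock genes 1 and 0, of 34 ATF4 genes 1 and 1 (3 and 2 with the replicate block), of 22 interferon genes 0 and 1, and of 39 nuclear genes of oxidative phosphorylation 0 and 0 (1 and 0 with the replicate block). The cytochrome P450 list was split at 4 and 3 of 16. CYP2S1 (0.695 to 2.48 against 9.67 to 10.8 CPM, 2.86 ± 0.43, adjusted p = 4.22e-05) and CYP24A1, which breaks down vitamin D (4.40 to 17.4 against 36.2 to 53.2 CPM, 2.39 ± 0.48, adjusted p = 0.0013), led the rises. Among the largest falls outside the lists were ROR1, a Wnt co-receptor, at 4.74, 5.79, 3.71 and 3.22 against 0.276, 1.18, 0.535 and 0.664 CPM (-2.56 ± 0.55, adjusted p = 0.00211), and SLCO4C1, an organic anion carrier, at 26.1, 22.7, 26.6 and 28.0 against 6.90, 5.88, 4.28 and 7.08 CPM (-2.09 ± 0.32, adjusted p = 4.78e-05). Both fell without overlap. BICC1 (-2.13 ± 0.58, adjusted p = 0.0168) and NAALADL1 (-1.81 ± 0.49, adjusted p = 0.0148) were also among the 12 and missed the threshold on leaving out sgKEAP1-1 replicate 3 (adjusted p = 0.0876) and sgKEAP1-1 replicates 2 and 3 (adjusted p 0.0582 to 0.0587), respectively.

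The same guide was compared with sgCtrl in siNC cells, in 8 libraries that form no side of the siTFEB/siTFE3 comparison though they share its 24-library fit, to ask whether the response differed with the knockdown. In that comparison 670 genes were higher (6.01% of those tested) and 548 lower (4.91%). Of the 634 genes called higher under siTFEB/siTFE3, 629 (99.2%) had the same sign with siNC, where 47.3% of all tested genes were positive, and 452 passed there. Of the 536 called lower, 526 (98.1%, against 52.7% of all tested genes) had the same sign and 338 passed. The difference of the 2 responses was then tested for each gene as an interaction. No gene passed in limma-voom (0% called, with 304 genes at an unadjusted p under 0.05 where 557.6 are expected by chance), and edgeR and DESeq2 also called 0. Leaving out any of the 16 libraries, or sgCtrl replicates 1 and 4 together, also gave 0.

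The intervals of that difference show how far the responses could be apart. For NQO1 the 95% interval of the interaction was -0.12 to 0.34 on the log2 scale, for GCLM -0.45 to 0.28 and for TXNRD1 -0.43 to 0.81. For AKR1B10 it was -0.64 to 1.32. In siNC cells sgKEAP1-1 replicate 1 held less AKR1B10 than the other 3, with libraries at 356, 1227, 1059 and 1328 CPM. Among lysosomal genes the interval was -0.64 to 0.46 for GLA, -0.68 to 0.27 for CTSB and -0.29 to 0.24 for LAMP1, so the intervals of GLA and CTSB reach past a 1.5-fold difference in the response and that of LAMP1 does not. CTSB passed with siNC (0.70, adjusted p = 0.00475) and, without the block, not under siTFEB/siTFE3, but its interaction had an unadjusted p of 0.383. Over the hydrolase list 7 of 40 were higher with siNC against 3 under siTFEB/siTFE3, the medians were 0.18 and 0.14, and 0 of the 40 had an interaction p under 0.05. The proton pump list had 2 of 17 higher under either siRNA, with medians of 0.22 with siNC and 0.15 under siTFEB/siTFE3. The membrane and sorting list had 5 of 44 higher with siNC against 3, with medians of 0.08 and 0.10. Of these 2 lists, 0 and 1 genes had an unadjusted interaction p under 0.05 (limma-voom). The cholesterol list had 16 lower under either siRNA, and the glutathione list 5 and 6 higher.

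Among the genes with the smallest interaction p were INAFM2, E2F5, ZNF48 and GABPB1/GABPB1-IT1, and none passed correction (the adjusted limma-voom p of INAFM2 was 0.928). INAFM2 was at 5.45 to 8.68 against 7.75 to 12.4 CPM under siTFEB/siTFE3 and 8.96 to 11.2 against 2.52 to 6.75 CPM under siNC (limma-voom interaction). E2F5, a repressor of the E2F family, had a log2 fold change of 0.07 under siTFEB/siTFE3 and -1.13 with siNC.

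The second guide, sgKEAP1-2, gave a further set of 4 knockdown libraries, which share their sgCtrl libraries with those described here, so only values are set side by side. KEAP1 RNA was at 73.9, 78.0, 90.6 and 69.7 CPM with sgKEAP1-2, a log2 fold change of -0.13 against sgCtrl that did not pass (adjusted p = 0.422), beside -0.61 for sgKEAP1-1. NQO1 was at 1.48 with guide 2 and 1.30 with guide 1, GCLM at 2.07 and 1.79, AKR1B10 at 4.13 and 3.95, GLA at 1.47 and 1.24, HMGCS1 at -1.48 and -1.14, and ALB at -1.21 and -1.02. MT1M was at -3.91 and -2.11, and MTTP at -3.25 and -1.90. Against the same sgCtrl libraries guide 2 called 2253 of the 11152 tested genes (1184 higher and 1069 lower), beside 1170 for guide 1. Guide 2 was tested directly against guide 1 under siTFEB/siTFE3. In that test 856 genes had an unadjusted limma-voom p under 0.05, where 557.6 are expected by chance. After correction 1 gene passed (0.00897% of those tested, and 11 genes with the replicate block). It was SLC6A14, an amino acid carrier, at 26.2, 32.9, 19.8 and 19.0 CPM with guide 1 and 8.04, 6.15, 7.04 and 8.57 CPM with guide 2 (log2 fold change -1.68 ± 0.25, adjusted p = 0.00431). The SLC6A14 call was lost in a fit of those 8 libraries alone (adjusted p = 0.0778) and on leaving out sgKEAP1-2 replicate 2 (adjusted p = 0.0607). For KEAP1 the direct difference was 0.48 (95% interval 0.26 to 0.70, adjusted p = 0.152).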

How the data were processed

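RNA of HepG2 cells was measured by 3′ sequencing (QuantSeq, single-end, 75 bp reads) in 24 libraries, 4 in each of 6 groups set by the labels. The authors deposited 1 table of counts per gene, raw read counts with no scaling. Per the methods reads were aligned to hg19, whereas the submitters' processing notes give hg38, and those notes also name FastQC 0.72, cutadapt 1.16, STAR 2.7.5b, featureCounts 1.6.3 and limma 3.40.6. Gene positions are given on GRCh37 and promoter windows on GRCh38.p14, both for orientation only, since the counts carry no coordinates.

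Of 13446 rows, 1414 had no gene ID (1.347% to 2.57% of reads) and stayed out of library sizes and tests. IDs with identical counts in every library (160) were merged into 78 features, which left 11927, and 11980 of 12009 IDs matched a symbol. The smallest row total was 15, so the deposited table had been filtered on low counts. Genes passing filterByExpr (11152) were TMM-scaled and tested with limma-voom (R 4.3.3, limma 3.58.1, edgeR 4.0.16) over all 24 libraries with 6 group means and no covariate, at a Benjamini-Hochberg adjusted p under 0.05. Intervals are 95% from the same fit, and counting intervals are exact Poisson. The code was tested on simulated counts with known changes. Library totals limit what can be seen at the low end, where 3 reads were taken as the floor. Alternatives were edgeR, DESeq2 1.42.0, other scalings, filters, library sets, weights, a replicate block, a fold threshold, and leaving out each library.

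Labels number the replicates from 1 to 4 in every group, and each number carries 1 prefix, written like a day and month, that all 6 groups share. The labels do not say what was done together under a prefix, and the study's methods state no block, so the fit without the replicate number was kept and the fit with it as a block was run beside it. The comparison and the gene lists were chosen with earlier results of these data known. Named genes were the studied regulators and set NRF2, lysosomal and liver genes, the 12 largest rises and falls among called genes with a mean of at least 10 reads and no overlap, up to 3 called genes in each direction per list, and the 5 smallest p-values of the interaction and of guide 2 against guide 1. Other genes named beside a list count were chosen after their values were seen. Some genes that this rule selects are not reported here.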

Additional observations from a re-analysis of the deposited data

Results flagged for a closer look

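Among 274 sets of 4 libraries checked for a library far from the other 3 (by Dixon's 95% critical value for 4 values), 10 were found (3.65%, where chance gives about 1 in 20). In sgCtrl cells these were F11, a coagulation factor, lowest in replicate 1 at 16.3 CPM with the others at 19.3 to 19.6. TFEB was highest in sgCtrl replicate 4 at 3.96 CPM with the others at 2.11 to 2.32, and TINAG was highest there too, at 3.72 CPM with the others at 0.232 to 0.789. In sgKEAP1-1 cells replicate 1 was highest for HNF4A (138 CPM, others 122 to 123) and APOA5 (20.2 CPM, others 11.5 to 11.95). Replicate 3 was lowest for EPB41L2 (175 CPM, others 192 to 194) and highest for F2RL2 (9.10 CPM, others 3.53 to 4.42) and FGL1 (278 CPM, others 248 to 253). Replicate 4 was highest for ETFB (1300.2 CPM, others 1131 to 1143) and SQSTM1 (450.2 CPM, others 383 to 391).

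The rows without a gene ID, used in no comparison of the report, were tested apart. Of 907 tested 16 were called between sgKEAP1-1 and sgCtrl cells under siTFEB/siTFE3, 10 higher and 6 lower (1.76%, against 10.5% of the genes with an ID).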

How the results depend on the processing

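The count of genes called between sgKEAP1-1 and sgCtrl cells under siTFEB/siTFE3 (1170) was 1991 with library quality weights, 427 with a log2 fold change of at least 1, 779 without sgCtrl replicates 1 and 4 together (chosen after seeing the data) and 804 to 1091 without 1 library. It was 1156 by edgeR, 1284 by DESeq2 and 1513 in the 8 libraries alone. With siNC (1218) it was 766 in those 8 libraries alone, 429 with the fold threshold and 895 to 1284 without 1 library. The interaction gave 0 in every alternative run. Guide 2 against guide 1 (1 gene) gave 3 by edgeR, 20 by DESeq2, 0 in their own 8 libraries, 5 with weights, and 0 to 3 without 1 library. The cause of these shifts was not tested, other than that a fold threshold only removes calls.

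TFEB in sgCtrl cells, -1.96 and not past the threshold, passed by edgeR (-2.03), by DESeq2 (-2.04), with weights (-1.88) and with the replicate block (-2.01). It ranged from -2.17 to -1.71 without 1 library and passed in 1 of those fits, without siNC sgCtrl replicate 2. In a fit of their own 8 libraries TFE3 (-1.74) and TFEB (-2.14) in sgKEAP1-1 cells missed the threshold (adjusted p 0.0631 and 0.0982). Without 1 library TFE3 ranged from -1.91 to -1.61 there and from -1.83 to -1.39 in sgCtrl cells, and TFEB from -2.33 to -1.86.

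Same-numbered sgCtrl and sgKEAP1-1 libraries under siTFEB/siTFE3 correlated in their deviations from the group means at 0.106, 0.119, 0.0436 and 0.196. Each of them correlated best with its own number, as did siNC libraries other than replicate 2, and each number has 1 date-like prefix in the labels across the groups. A block for replicate number gave 1381 calls under siTFEB/siTFE3, 1454 with siNC, 0 in the interaction and 11 between the guides. It turned TFEB in sgCtrl cells to passed (-2.01, adjusted p = 0.0157) and, among the named genes, CTSB to passed (0.49, adjusted p = 0.000534) and HNF4G to not passed (-1.49, adjusted p = 0.0569), and it changed no other named call. Besides the list counts given above, it added 1 lower thioredoxin, 1 lower proteasome and 1 higher cholesterol gene.

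Over the named genes 2107 alternative values kept their direction and side of the threshold, 203 lost the call and 7 gained it, and no value changed sign among called genes. Of the 203, 162 came from leaving out 1 library. Of the list counts 1131 were within 1.5 times and 201 were not. At 3643080 to 4600951 reads a library, a gene with under 3 reads in every control gives a ratio and no firm fold.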
